A study of Mus musculus with 2 samples.

Results

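The HoxC cluster is one of the 4 mouse Hox clusters. It comprises 9 homeobox genes (Hoxc4, Hoxc5, Hoxc6, Hoxc8, Hoxc9, Hoxc10, Hoxc11, Hoxc12 and Hoxc13) and, on the opposite strand between Hoxc12 and Hoxc11, the long noncoding RNA gene Hotair. The 10 genes were taken by symbol from the annotation of the gene identifiers, and each had a row in the gene table of both libraries, among 43346 rows with gene identifiers. Their 16 annotated transcripts were taken from the transcript tables in the same way.

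The RNA came from whole limb tissue of mouse embryos of the strain B6NCrl at embryonic day 10.5, with both sexes pooled. There was 1 group of 2 biological replicates, a pool from 69 embryos (replicate 1) and a pool from 51 embryos (replicate 2). The labels do not separate forelimb from hindlimb buds, and no genetic change or treatment is given. The gene tables hold 40509328 estimated counts for replicate 1 and 43983028 for replicate 2. With no second group, the levels, the transcripts and the difference between the pools are described without a test: a two-sided exact test over a pair of libraries cannot reach a usual threshold, and pool, library and any batch cannot be told apart.

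Hox genes encode homeodomain transcription factors that give cells their position along the body axis and along the limb. They are used in the order in which they lie on the chromosome, the low-numbered genes earlier and more anteriorly, the high-numbered genes later and more posteriorly. In the limb the HoxA and HoxD clusters pattern the proximal to distal axis, whereas HoxC genes are better known from the trunk, the spinal cord, the hindlimb bud and the skin. Hotair was described in human fibroblasts as an RNA that binds Polycomb repressive complex 2 (PRC2), and the mouse gene is known to be used in posterior structures such as the hindlimb and the tail bud.

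All 10 genes lie on chromosome 15 (mm10), and the stretch from the start of Hoxc13 to the end of Hoxc4 covers 115750 bases. The 9 Hox genes are on the plus strand. Gene models overlap in this cluster, which matters for how reads can be assigned. The model of Hoxc5 (chr15:102967443-103017429) reaches back over Hoxc6, Hoxc8 and Hoxc9 into Hoxc10, because the noncoding transcript Hoxc5-202 begins with an exon of 166 bases (chr15:102967443-102967608) that lies wholly inside the first exon of Hoxc10. Both transcripts leave this exon at the same splice donor, and only the exon that follows tells them apart. The junctions below show this, with the end of the shared exon in capitals for Hoxc10-201 and Hoxc5-202, and for the coding transcript Hoxc5-201 the start of the exon that it shares with Hoxc5-202 in capitals.
Hoxc10-201: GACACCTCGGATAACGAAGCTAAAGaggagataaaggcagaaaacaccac
Hoxc5-202: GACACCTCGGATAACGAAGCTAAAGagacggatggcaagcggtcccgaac
Hoxc5-201: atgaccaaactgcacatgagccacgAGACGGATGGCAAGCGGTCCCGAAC

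**Figure D1:**
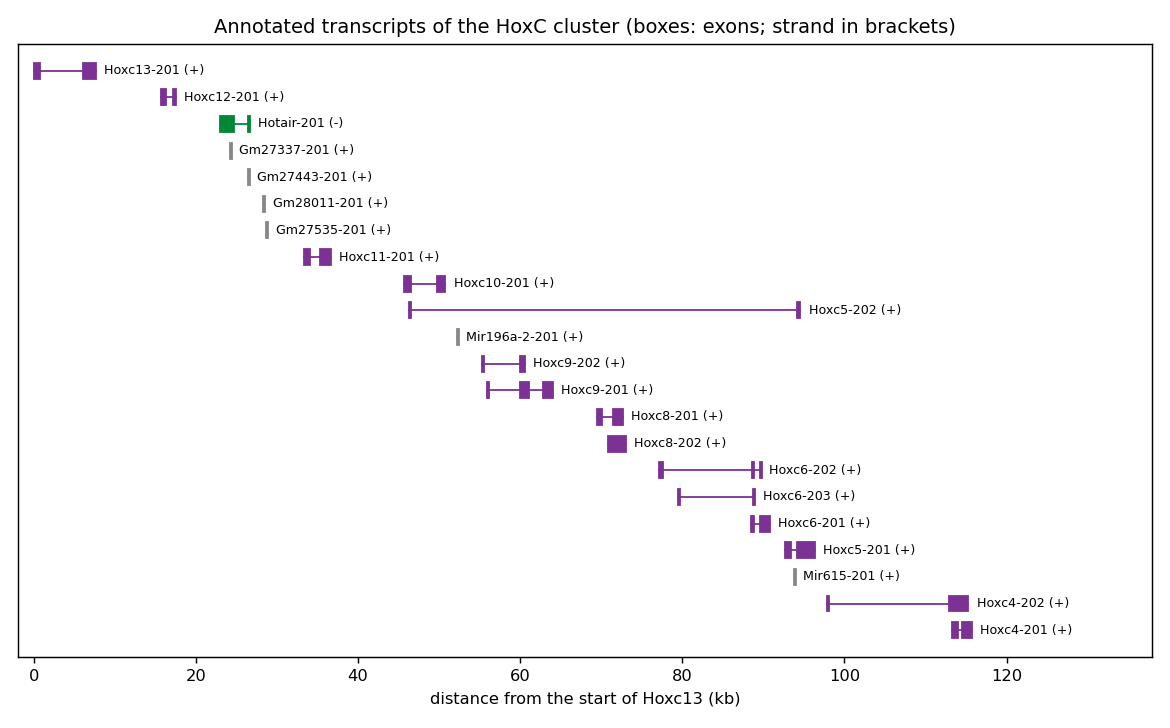
Annotated transcripts of the HoxC cluster, drawn to scale as the distance in kb from the start of Hoxc13, with exons as boxes and the strand in brackets (HoxC genes purple, Hotair green, short RNA genes grey; boxes are at least 0.25 kb wide so that short exons can be seen). Hoxc5-202 runs from the first exon of Hoxc10 to the second exon of Hoxc5, and Hotair is the only model on the minus strand.

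The estimated counts carry the trace of this overlap. Hoxc10 and Hoxc5 were the members with fractional counts, 863.04 and 531.96 in replicate 1, which add to the whole number 1395, and to 2864 in replicate 2. The other 8 members had whole counts in both libraries, which is what reads not divided with another gene give. Hoxc5-202 took an estimated 28.92 counts in replicate 1 and 29.69 in replicate 2, few beside those of Hoxc10.

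HoxC genes were used at low to moderate levels in this tissue, apart from Hoxc10. At a level of at least 1 TPM (a length-normalised level, scaled to the same total in each library) in both libraries, 7 of the 10 members were expressed, beside 55.2% of 21474 protein-coding genes. The 3 below that level in replicate 1 were Hoxc13, Hoxc12 and Hotair, which lie together at the posterior end of the cluster. The TPM of the 9 Hox genes summed to 53.1 in replicate 1 and 86.5 in replicate 2, which was 8.38% and 13.4% of the TPM of all 39 Hox genes. HoxA genes held 57.4% and 56.1%, HoxD genes 28.2% and 25.7%, and HoxB genes 5.99% and 4.78%.

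**Figure D2:**
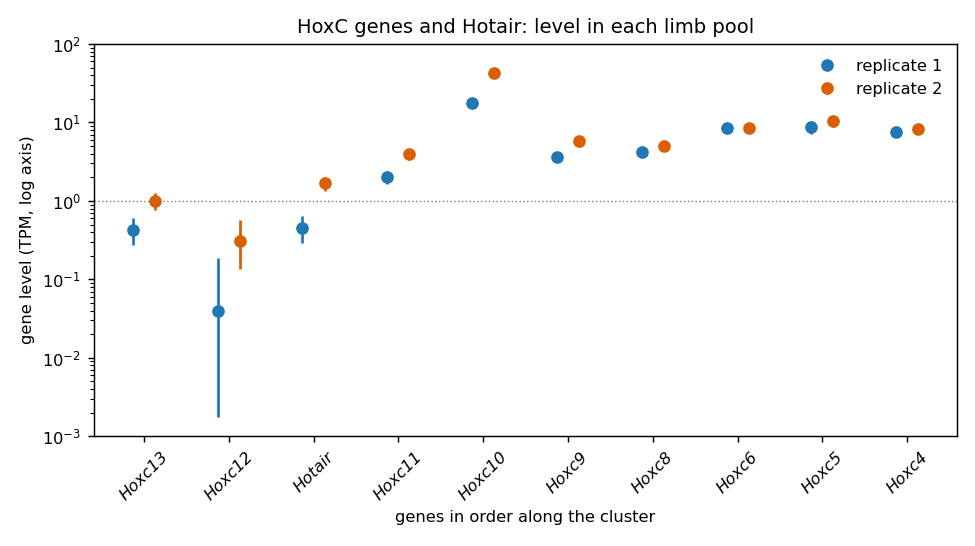
Gene level in TPM (log axis) of the 9 HoxC genes and Hotair in order along the cluster, in replicate 1 (blue) and replicate 2 (orange). Lines are the deposited TPM intervals and the dotted line marks 1 TPM. Hoxc10 is highest in both pools, at 17.9 and 43.2 TPM, and the pools lie close together from Hoxc8 to Hoxc4.

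In order of mean TPM, the members ran Hoxc10, Hoxc5, Hoxc6, Hoxc4, Hoxc9, Hoxc8, Hoxc11, Hotair, Hoxc13 and Hoxc12. Neighbours in this order were called separated where the deposited TPM intervals (of a confidence level that the tables do not name) did not overlap in either library. By this measure 5 of the 9 neighbouring pairs were separated: Hoxc10 from Hoxc5, Hoxc4 from Hoxc9, Hoxc8 from Hoxc11, Hoxc11 from Hotair and Hoxc13 from Hoxc12. Hoxc5, Hoxc6 and Hoxc4 followed each other with overlapping intervals, and so did Hoxc9 and Hoxc8, whose order was the opposite in replicate 1. Hotair and Hoxc13 were separated in replicate 2 and overlapped in replicate 1. The cluster thus held 1 high gene, levels of 3.66 to 10.54 TPM from Hoxc9 to Hoxc4, and a low posterior end.

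Hoxc13, the last gene of the cluster (chr15:102921103-102928814), is known for its part in hair and nail formation. Its level was 0.43 TPM in replicate 1 and 1.01 TPM in replicate 2, from 27 and 66 counts. The difference between the pools is given as the log2 difference, replicate 2 minus replicate 1, of counts scaled by the trimmed mean of M-values (TMM). A prior count of 2 draws this value towards 0 where counts are low. Beside it stands an exact binomial interval of 95%, computed without the prior count, that covers counting error only. For Hoxc13 the log2 difference was 1.04 (0.43 to 1.80), and the TPM intervals of the pools did not overlap.

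Hoxc12 (chr15:102936757-102938609), known from hair follicles, was the lowest member, with 1 count in replicate 1 (0.04 TPM) and 8 counts in replicate 2 (0.31 TPM). The TPM intervals were 0.00176 to 0.188 and 0.136 to 0.565 and overlapped. The log2 difference was 1.63, a value drawn strongly towards 0 by the prior count at such low counts, whereas the TPM ratio was 7.75. The counting interval, which uses no prior count, was -0.10 to 8.27 and held 0, so no difference was detectable at this depth. Hoxc12 alone among the members missed the minimum mean count of 10 and is left out of the counts of differences below.

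Hotair (chr15:102944062-102947730, minus strand) has 2 exons and a spliced length of 2006 bases, and the junction of its exons is shown here because it identifies the spliced RNA that the values are assigned to.
Hotair-201: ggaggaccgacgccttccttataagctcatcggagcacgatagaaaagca
Its level was 0.45 TPM in replicate 1 and 1.68 TPM in replicate 2, from 23 and 89 counts. The replicate 2 level was above that of replicate 1 with TPM intervals of 0.288 to 0.651 and 1.33 to 2.01, and the log2 difference was 1.68 (1.08 to 2.48), the largest among the measured members. The short RNA models Gm27337 (69 bases) and Gm27443 (98 bases) lie in its exons on the opposite strand. They had an effective length of 0 in the tables and so could receive no counts. Whether counting used strand is not stated, so Hotair reads and reads of RNA from the opposite strand cannot be told apart. Between Hotair and Hoxc11, Gm28011 had 2 and 5 counts and Gm27535 had 3 and 4 counts.

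Hoxc11 (chr15:102954427-102957708), a gene known from the hindlimb bud and the posterior trunk, was measured at 2.03 TPM in replicate 1 and 3.91 TPM in replicate 2. The TPM intervals of the pools did not overlap, and the log2 difference was 0.80 (0.46 to 1.16). It stood above Hotair, its neighbour on the opposite strand, 4.51-fold in replicate 1 and 2.33-fold in replicate 2.

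Hoxc10 (chr15:102966796-102971893) is widely used as a marker of the hindlimb bud and of lumbar motor neurons. It was the highest gene of the cluster, at 17.88 TPM in replicate 1 and 43.15 TPM in replicate 2. The pools did not overlap (TPM intervals 16.4 to 18.7 and 40.5 to 44.0), and the log2 difference was 1.13 (1.02 to 1.25). Hoxc10 alone made up 33.7% of the TPM of the 9 HoxC genes in replicate 1 and 49.9% in replicate 2. Its rank among the 39 Hox genes was 9 in replicate 1 and 4 in replicate 2. In bulk tissue, a smaller number of cells that use a gene and less RNA per cell cannot be told apart.

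Hoxc9 (chr15:102976439-102985099), known for setting thoracic motor neuron identity, had 3.66 TPM in replicate 1 and 5.81 TPM in replicate 2. Replicate 2 was higher, with TPM intervals that did not overlap and a log2 difference of 0.52 (0.28 to 0.77). Hoxc8 (chr15:102990607-102994111), which acts in the thoracic skeleton and in brachial motor neurons, had 4.23 and 5.08 TPM. Its log2 difference was 0.18 (-0.08 to 0.44), an interval that holds 0.

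The 3 anterior genes were each near 8 to 10 TPM and close in the pools. Hoxc6 (chr15:102998257-103011881), known from the brachial spinal cord and the thorax, had 8.48 TPM in replicate 1 and 8.43 TPM in replicate 2. Its log2 difference was -0.15 (-0.39 to 0.09). Hoxc5, which is known from the cervical and brachial region, had 8.78 and 10.54 TPM and a log2 difference of 0.19 (0.02 to 0.35), with overlapping TPM intervals. Hoxc4 (chr15:103018934-103036852), known from the cervical spine and the forelimb level of the spinal cord, had 7.57 and 8.26 TPM and a log2 difference of -0.02 (-0.22 to 0.19). The sign for Hoxc4 and Hoxc6 depended on the scaling: both were above 0 with spike-in scaling, at 0.24 and 0.11. That scaling moved the median over all measured genes to 0.26.

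The larger differences between the pools were thus at the posterior end of the cluster. Of the 9 measured members, 3 (Hotair, Hoxc10 and Hoxc13) were at least 2-fold higher in replicate 2 with a counting interval above 0, and 0 were at least 2-fold lower. Over all 16860 measured genes, the same rule called 3.81% higher and 1.43% lower. The interval lay above 0 for 6 members and held 0 for the other 3, where 27.2% of all measured genes had an interval above 0 and 26.2% one below 0. The deposited TPM intervals of replicate 2 lay wholly above those of replicate 1 for 5 members (28.7% of all measured genes) and wholly below for 0 (7.19%). The median log2 difference over the 9 members was 0.52, and over all measured genes it was 0.01. The values were higher towards the Hoxc13 end than towards the Hoxc4 end, with a Spearman rho of -0.83 between position and difference over 9 genes. This is a description of genes that share the same pair of libraries.

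**Figure D3:**
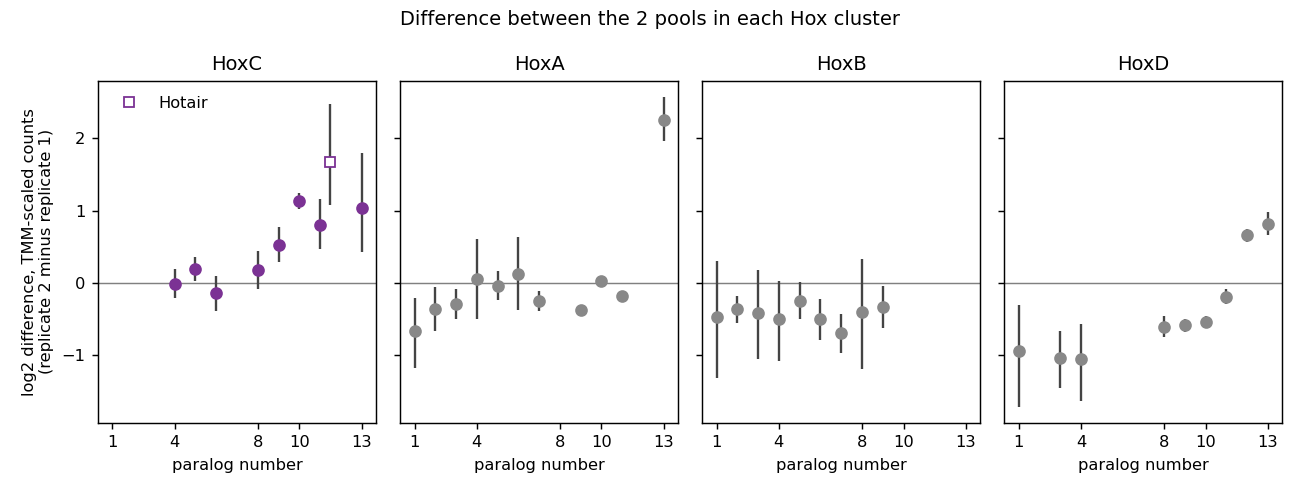
Log2 difference of TMM-scaled counts (replicate 2 minus replicate 1) by paralog number in each Hox cluster, for genes with a mean count of at least 10, with Hotair as an open square placed between Hoxc11 and Hoxc12. Lines are counting intervals of 95%. In HoxC the values lie near 0 for paralogs 4 to 8 and between 0.52 and 1.13 for paralogs 9 to 13.

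The posterior genes of the other clusters did not all stand on the same side. In HoxC, the 4 measured genes of paralog groups 9 to 13 had a median difference of 0.92, all above 0, and the 4 genes of groups 4 to 8 had a median of 0.08. In HoxA, groups 9 to 13 had a median of -0.09, with Hoxa13 at 2.25 (1.97 to 2.58) and Hoxa9 at -0.37 (-0.43 to -0.32). In HoxD the median for groups 9 to 13 was -0.19, with Hoxd12 at 0.65 and Hoxd13 at 0.81 above 0 and Hoxd9, Hoxd10 and Hoxd11 below 0. Groups 1 to 8 had a median of -0.25 in HoxA, -0.45 in HoxB and -1 in HoxD. Higher values towards the posterior end were thus not particular to HoxC, since HoxD had them as well. The 1 measured HoxB gene of groups 9 to 13, Hoxb9, was at -0.34. With spike-in scaling the medians for groups 9 to 13 became 0.06 in HoxD, 0.17 in HoxA and 1.17 in HoxC. That scaling moved the median over all measured genes to 0.26, so HoxD and HoxA stayed below it. Whether the clusters differ was not tested, since each value comes from the same pair of libraries.

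Paralogs of one number are the genes of different clusters that descend from the same ancestral gene and often act together. HoxC genes led 3 of the 9 paralog groups that they belong to, all at the anterior end. Hoxc4 held 64.1% of the TPM of its group in replicate 1 and 72.0% in replicate 2. Hoxc5 held 40.1% and 44.2% and Hoxc6 held 47.1% and 49.4%, each the highest of its group in both libraries. Hoxc5 and Hoxa5 were not separated: Hoxa5 had 8.14 TPM in replicate 1 and 8.71 TPM in replicate 2, with intervals that overlapped those of Hoxc5 in both. The lead of Hoxc5 rests on its noncoding transcript Hoxc5-202, whose estimate is uncertain. The coding transcript Hoxc5-201 alone was at 6.68 and 8.47 TPM, below the whole Hoxa5 gene in both libraries. The intervals of Hoxc5-201 and Hoxa5 were apart in replicate 1 and overlapped in replicate 2. The intervals of Hoxc6 and Hoxb6 overlapped in replicate 1 (7.38 to 9.57 and 5.68 to 7.40 TPM) and were separated in replicate 2. The coding transcript Hoxc6-201 alone was at 6.24 TPM in replicate 1, below Hoxb6 at 6.62 TPM. In replicate 2 it was at 6.13 TPM, above Hoxb6 at 5.14 TPM. The intervals of Hoxc6-201 and of the whole Hoxb6 gene overlapped in both libraries, so their order is not resolved. In the other 6 groups a HoxA or HoxD gene was highest in both libraries: Hoxd8, Hoxa9, Hoxa10, Hoxa11, Hoxd12 and Hoxd13.

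The share of the HoxC gene in these groups was smaller. Hoxc8 held 21.4% and 32.5% of its group, Hoxc9 2.38% and 4.78%, Hoxc11 2.17% and 4.34%, Hoxc12 0.184% and 0.818%, and Hoxc13 4.13% and 4.00%. Hoxc10 held 8.11% of the group 10 TPM in replicate 1 and 17.2% in replicate 2. In replicate 1 it stood below Hoxa10 at 145.9 TPM and Hoxd10 at 56.8 TPM. In replicate 2 Hoxd10 was at 42.9 TPM, and Hoxc10 at 43.2 TPM, with overlapping intervals, and Hoxa10 was at 164 TPM.

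**Figure D4:**
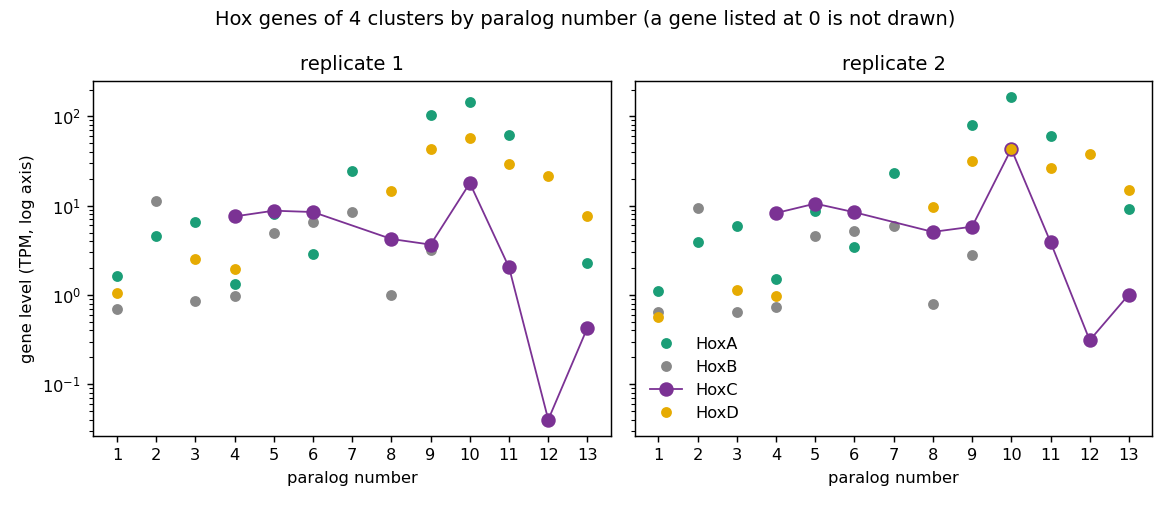
Gene level in TPM (log axis) of the Hox genes of the 4 clusters by paralog number, in replicate 1 (left) and replicate 2 (right), with the HoxC genes joined by a line. HoxC genes are the highest points at numbers 4, 5 and 6, and lie below the highest HoxA or HoxD gene from number 8 on.

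Several HoxC genes have more than 1 annotated transcript, and the transcript tables divide each gene's TPM among them. Of the 10 members, 5 have a single transcript (Hoxc10, Hoxc11, Hoxc12, Hoxc13 and Hotair) and 5 have 2 or 3. Over the latter, the median share of the leading transcript was 77.3%. Where the transcripts differ by a short exon or share most of their bases, the estimate rests on few reads.

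Hoxc8 is the member whose leading transcript, by estimated TPM, was not the same in both libraries. The coding transcript Hoxc8-201 (1868 bases) joins the first exon of 609 bases to the second by splicing. Hoxc8-202 (2223 bases, annotated as a retained intron) lacks that first exon, starts inside the intron with 674 bases of it, and ends 290 bases later. Both hold the same 1259 bases in common. The sequences across the start of the second exon show what separates a spliced read from a read of the retained intron, with the second exon in capitals.
Hoxc8-201: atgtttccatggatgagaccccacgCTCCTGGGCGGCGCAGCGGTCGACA
Hoxc8-202: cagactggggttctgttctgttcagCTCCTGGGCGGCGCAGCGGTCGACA

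Hoxc8-201 was at 2.60 TPM in replicate 1 and 2.10 TPM in replicate 2, with intervals of 2.02 to 3.09 and 1.51 to 2.63 that overlap. Hoxc8-202 was at 1.63 and 2.98 TPM, with intervals of 1.23 to 2.03 and 2.40 to 3.49 that do not overlap. Within each library the intervals of Hoxc8-201 and Hoxc8-202 overlapped, narrowly in replicate 1, so the leading transcript is not resolved in either. The share of the coding transcript was 61.4% in replicate 1 and 41.3% in replicate 2, a change of 20.14 percentage points. Among 228 genes with 2 transcripts and a mean count within 1.5 times that of Hoxc8, the median change in share was 4.03 points, and 19 genes (8.33%) changed by at least as much as Hoxc8. These genes were not matched to Hoxc8 by share, so they can include genes with nearly all TPM in 1 transcript, whose share can move little. Reads in these intron bases cannot tell the annotated Hoxc8-202 from unspliced Hoxc8 RNA.

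Hoxc8 is a known target of the microRNA miR-196 in the mouse, and 1 of the miR-196 genes, Mir196a-2, lies in this cluster between Hoxc10 and Hoxc9 (chr15:102973350-102973434). A second microRNA gene, Mir615, lies in the intron of Hoxc5-201 (chr15:103014910-103015001). Their mature sequences (RefSeq, GRCm38.p6) are given with the seed, bases 2 to 8, in capitals, because the seed sets which messenger RNAs can pair with them. The 4 sequences have different seeds.
mmu-miR-196a-5p: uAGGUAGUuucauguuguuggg
mmu-miR-196a-2-3p: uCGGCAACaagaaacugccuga
mmu-miR-615-5p: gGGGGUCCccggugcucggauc
mmu-miR-615-3p: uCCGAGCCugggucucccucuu

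The 7 bases ACTACCT, the reverse complement of the miR-196a-5p seed, were searched on the sense strand of the 16 HoxC transcripts and occurred in Hoxc8 alone. They occur in 11.2% of 4552 protein-coding transcripts whose length is within 10% of that of Hoxc8-201. Hoxc8-201 holds 2 matches after its coding part and Hoxc8-202 holds these and 1 more, in the bases beyond the end of Hoxc8-201. The matches are shown as 22-base windows from GRCm38 with the match in capitals.
chr15:102992976-102992997: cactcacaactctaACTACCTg
chr15:102993733-102993754: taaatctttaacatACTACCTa
chr15:102993871-102993892: cagcgtattttatcACTACCTa
A match is a description of the letters and not a measured site. The libraries hold RNA longer than 200 nt, so mature microRNAs were outside the measurement, and the hairpin genes were close to it: Mir615 had an effective length of 0 in the tables and Mir196a-2 one of 11 bases with 0 counts in both libraries. For Mir196a-2 the deposited posterior mean TPM was 3.34 and 3.21 with 0 counts, and no level is read from it.

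Hoxc5 was carried by its coding transcript. Hoxc5-201 was at 6.68 TPM in replicate 1 and 8.47 TPM in replicate 2, with intervals that did not overlap, and made up 76.1% and 80.4% of the gene. Hoxc5-202, the transcript that begins in the Hoxc10 exon, was estimated at 2.10 and 2.07 TPM. Its intervals of 0.435 to 3.95 and 0.221 to 4.00 were wide, so its share of 23.9% and 19.7% is uncertain.

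Hoxc4 has a pair of coding transcripts that start at different annotated positions and part ways inside the gene. Hoxc4-201 (792 coding bases) held 76.5% of the gene's TPM in replicate 1 and 78.1% in replicate 2, at 5.80 and 6.45 TPM. Hoxc4-202 (453 coding bases) begins further upstream and held 23.5% and 21.9%, at 1.78 and 1.80 TPM. The coding junctions below show where they part, with the end of the common exon in capitals, followed by the next 14 coding bases of each.
Hoxc4-201: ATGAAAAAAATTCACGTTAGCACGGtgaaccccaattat
Hoxc4-202: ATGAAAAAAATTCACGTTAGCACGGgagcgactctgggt
The shares moved by 1.63 points between the libraries, and the TPM intervals overlapped for both transcripts.

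Hoxc6 was likewise led by its coding transcript. Hoxc6-201 was at 6.24 and 6.13 TPM, 73.7% and 72.8% of the gene. The noncoding transcripts Hoxc6-202 and Hoxc6-203, which start upstream, held 12.5% and 13.8% in replicate 1 and 14.9% and 12.4% in replicate 2. For Hoxc9 the whole estimate went to Hoxc9-201, and Hoxc9-202 was listed at 0 in both libraries.

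**Figure D5:**
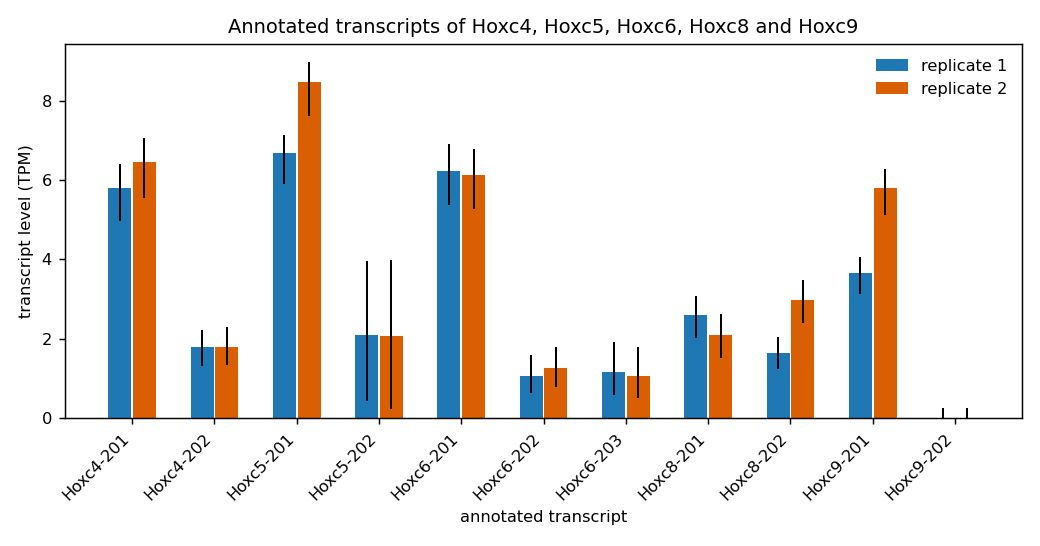
Transcript level in TPM of the 11 annotated transcripts of Hoxc4, Hoxc5, Hoxc6, Hoxc8 and Hoxc9 in replicate 1 (blue bars) and replicate 2 (orange bars), with the deposited TPM intervals as lines. The transcript numbered 201 is the highest of each gene, except for Hoxc8 in replicate 2, where the intron-holding Hoxc8-202 stands at 2.98 TPM and the coding Hoxc8-201 at 2.10 TPM. The intervals of these Hoxc8 transcripts overlap within each library.

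Genes that work with Hox proteins or mark the kind of limb were described beside the cluster. For the list counts here and below, 3.81% of all measured genes were called 2-fold higher and 1.43% lower. An interval above 0 was found for 27.2% of all measured genes and one below 0 for 26.2%. The 9 genes for the homeodomain cofactors Pbx, Meis and Pknox, which bind DNA together with Hox proteins, were all at 1 TPM or more in both libraries, and 0 were 2-fold higher or lower. Pknox2 came closest, at 4.93 and 9.79 TPM with a log2 difference of 0.96 (0.79 to 1.14). Of 8 genes for PRC2 and the repressor complexes reported to bind human HOTAIR, all were expressed and 0 differed 2-fold. Ezh2, the methyltransferase of PRC2, had 108 and 124 TPM, far above the 0.45 and 1.68 TPM of Hotair.

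Of 3 hindlimb markers, 2 had an interval above 0 (27.2% of all measured genes), and 0 reached 2-fold on TMM-scaled counts. Pitx1, the homeobox gene that sets hindlimb identity, had a log2 difference of 0.79 (0.73 to 0.85), from 64.98 TPM in replicate 1 to 126.5 TPM in replicate 2. Tbx4, the hindlimb T-box gene, had 19.66 and 41.14 TPM, over 2-fold apart on that scale, and a difference of 0.94 (0.86 to 1.03) on scaled counts. Isl1, which acts at the onset of the hindlimb bud, had 9.53 and 11.20 TPM and a difference of 0.14 (-0.03 to 0.32). The 3 genes summed to 94.2 TPM in replicate 1 and 178.9 TPM in replicate 2. Tbx5, the forelimb gene, had 28.81 and 26.44 TPM and a difference of -0.26 (-0.34 to -0.19). The part of the limb type in the HoxC differences was not tested.

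Markers of other tissues that use HoxC genes were also read. Of 9 neural tube and motor neuron genes, 1 (Isl2, at 2.78 and 2.10 TPM) passed the count filter and Chat was at 0 in both libraries. The genes under the filter had few counts and went both ways, such as Mnx1 at 1 and 17 counts and Lhx3 at 8 and 2. The neural tube and motor neuron list summed to 3.24 and 2.69 TPM, most of it from Isl2. The 7 genes of neurons and ganglia summed to 15.2 and 13.4 TPM, with Pou4f1 at least 2-fold lower in replicate 2. The 6 somite and sclerotome genes summed to 35.8 and 47.0 TPM, with Pax1, Pax9 and Nkx3-2 at least 2-fold higher in replicate 2 and Uncx at least 2-fold lower. Nkx3-2 rests on 4 and 19 counts, just above the count filter. The 5 genes of the flank and coelomic lining summed to 18.7 and 9.35 TPM, with Gata4 and Upk3b at least 2-fold lower. The 5 limb mesenchyme genes were all expressed and summed to 641 and 724 TPM, and the 6 ectoderm genes to 158 and 166 TPM. Of the ectoderm genes, Krt14 was at least 2-fold higher and Krt5 had an interval above 0, whereas Krt8, Krt18, Epcam and Trp63 had intervals below 0, and the median difference was -0.22. The part of these tissues in the HoxC values was not tested.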

How the data were processed

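The authors deposited, per library, a gene and a transcript table with each expected count (an estimated count that need not be whole), TPM, FPKM and posterior mean TPM. The deposited tables also give TPM interval bounds, treated as a score because their level is not named, and the percent of each gene's TPM per transcript. Per the sample text files, quantification used transcriptome alignments on mm10 with GENCODE M4. The aligner, the quantifier and any use of strand in counting were not given in the sources used here. Names, coordinates and sequences came from GENCODE M21 (GRCm38, the same assembly), which matched 98.0% of the gene rows and all 16 HoxC transcripts in version and length. Sequences of microRNAs came from RefSeq.

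Expected counts totalled 40509328 and 43983028, of which spike-ins were 3.89% and 3.45%. Gene counts were rounded, scaled by TMM in edgeR 4.0.16 (R 4.3.3) and turned into log2 CPM with a prior count of 2. DESeq2 1.42.0 size factors were an alternative. Intervals are exact (Clopper-Pearson, 95%) and express counting error alone, as PCR copies were not marked by molecular identifiers. The steps were tested on simulated libraries that held counting error alone and no further spread between pools. That test cannot show how the calls behave in these pools. Figures used Python 3.11.15 and matplotlib 3.10.9. Named genes were the members, the gene models overlapping or lying between them, the nearest coding neighbours, paralogs and members of fixed lists. Members and lists were chosen with earlier results of these data known. The labels do not say whether the pools were dissected or prepared on separate days.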

Additional observations from a re-analysis of the deposited data

How the results depend on the processing

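The count of members expressed in both libraries was 7, and 4 at a TPM of at least 5. The median log2 difference over the measured members was 0.52, and 0.78 with scaling to the spike-in counts. Smaller shifts, within 1.5 times for a count, were as follows. The members at least 2-fold higher were 3, with 4 under spike-in scaling and 2 at a mean count of at least 50. The members with a difference above 0 were 7, and between 6 and 9 under the alternatives. The expressed members were 9 at a TPM of at least 0.1. Another scaling shifted all measured genes together: the median over all of them was 0.26 with spike-in scaling, 0.15 on deposited TPM, 0.08 with total counts and 0.004 with DESeq2 size factors. Hotair, Hoxc10 and Hoxc13 were above 0 in each alternative run that kept them, between 1.65 and 1.92, 1.12 and 1.38, and 1.03 and 1.28. Hoxc13 was left out at a mean count of at least 50. On deposited TPM, less the median over all measured genes, the differences of Hotair, Hoxc10 and Hoxc13 were 1.55, 1.12 and 0.92. The last is below 2-fold. Hoxc6 was below 0 in 7 of 8 alternatives and Hoxc4 in 4 of 8. With either replicate left out, the median level was 3.95 to 5.45 TPM, 7 to 9 members were expressed, the median leading share was 76.1% to 78.1% and 5 to 6 neighbouring pairs were separated. The differences have no value without one of the libraries. No paired analysis was possible because there is 1 group. Counts limit Hoxc12, Hoxc13 and Hotair most.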

Other observations

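The genes next to the cluster were read in the same way. Calcoco1, the nearest protein-coding gene on the Hoxc13 side at 198925 bases, had 21.62 TPM in replicate 1 and 27.94 TPM in replicate 2 and a log2 difference of 0.30 (0.20 to 0.40). Smug1, a DNA repair glycosylase gene 116438 bases beyond Hoxc4, had 13.38 and 12.63 TPM and a difference of -0.22 (-0.34 to -0.10). Between Hoxc4 and Smug1, the unclassified model 5730585A16Rik had 1.46 and 1.55 TPM and the noncoding Gm28876 had 1.80 and 1.31 TPM, and both counting intervals held 0.

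The reverse complement of the miR-615-5p seed, GGACCCC, occurred on the sense strand of Hoxc11-201, Hoxc12-201 and Hoxc6-201, and in 16.8% of the protein-coding transcripts within 10% of the length of Hoxc8-201. That of the miR-615-3p seed, GGCTCGG, occurred in the noncoding Hoxc6-202 and in 9.09% of them. That of the miR-196a-2-3p seed, GTTGCCG, occurred in Hoxc6-202 as well and in 3.27% of them. These matches describe letters in the annotated transcripts and carry no measurement of pairing.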
